A study of Saccharomyces cerevisiae with 15 samples.

Results

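The genes described here are 10 genes of aroma formation in QA23, a commercial wine strain of *Saccharomyces cerevisiae*, out of 6224 genes measured on the same arrays. They are the alcohol acetyltransferase genes *ATF1* and *ATF2*, the ethyl ester synthase genes *EHT1* and *EEB1*, the ester hydrolase gene *IAH1*, and 5 genes of the Ehrlich pathway, *BAT1*, *BAT2*, *ARO8*, *ARO9* and *ARO10*. They were picked by name for their place in ester and fusel alcohol formation, with a higher *ATF1* level after melatonin alone (Mel vs. Control) already known from these arrays. The values of Mel vs. Control are therefore given as a description and without a test. The *ATF1* value of MelH vs. Mel uses the same Mel arrays and is a description too, although the counts of calls include it.

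Cells were grown in YPD broth, with or without melatonin, to the exponential phase, and some cultures then received H2O2 for 1 h. The 5 conditions, with 3 arrays each, were Control (0 μM melatonin, 0 mM H2O2), Mel (5 μM, 0 mM), H (0 μM, 2 mM), MelH (5 μM, 2 mM) and 25MelH (25 μM, 2 mM). The sample labels name Mel and MelH as 5Mel and 5MelH. The scanner tables and a second deposited matrix of the same arrays disagree on the condition of 9 arrays, those of Mel, H and MelH, and the conditions here are those of the scanner tables. By these labels, gene-centred correlations of the Mel arrays were 0.636 to 0.774 with Control and −0.798 to −0.590 with 25MelH, conditions on which both sources agree. Those of the H and MelH arrays were −0.811 to −0.570 with Control and 0.363 to 0.808 with 25MelH. If the matrix named the arrays rightly, the values given for Mel would be those of H, the values given for H those of MelH and the values given for MelH those of Mel. All 15 arrays hold RNA of the same strain from separate cultures that the study calls biological replicates, and melatonin at 25 μM was measured only under stress. Each array measured RNA pooled from many cells of a culture, so a lower level in every cell and fewer cells that carry the RNA cannot be told apart.

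Yeast makes fusel alcohols through the Ehrlich pathway, in which an aminotransferase turns a branched-chain or aromatic amino acid into a keto acid, a decarboxylase turns the keto acid into an aldehyde, and a dehydrogenase reduces the aldehyde to the alcohol. Acetyltransferases join acetyl-CoA to ethanol or a fusel alcohol to give acetate esters, such as the banana-scented isoamyl acetate, and acyltransferases join medium-chain acyl-CoA to ethanol to give the fruity ethyl esters. Esterases cleave these esters again. In wine these compounds carry much of the fermentation bouquet.

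Levels are log2 signals relative to the 75th percentile of the signals on the same array, so that a level of 0 lies at that percentile. The probe of each gene has its own brightness, and levels are compared between conditions and not between genes. Each of the 10 genes had 1 probe in 2 spots, well above background on 15 of 15 arrays, with signals from 268 (*EEB1*) to 26734 (*BAT1*), and 1 spot, of *ARO8*, was left out as an outlier. The 75th percentile lay between 4186 and 5922 on the 6 arrays without H2O2 and between 2274 and 3552 on the 9 arrays with it, and 88.4 to 96.8% of genes were well above background. Replicate arrays correlated with r of 0.992 to 0.997 over genes. Scaled to 7 spike-in probes instead of to the percentile, all genes had a median log2 change of −1.478 in H vs. Control, with −1.045 in MelH vs. Mel. Then 10 and 8 of the 10 genes were called lower and 0 higher, where 5942 and 5209 of all 6224 genes were called. Every direction below is therefore relative to the other RNA on the array, and for the 10 genes each call of a higher level under stress turned to a lower value with spike-in scaling. The number of arrays limits the precision of every value.

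Stress separated the arrays for most of these genes. For 8 of the 10 the 9 arrays with H2O2 lay wholly apart from the 6 without it, 5 genes higher and 3 lower at the percentile scaling, and *EHT1* and *BAT1* overlapped. Of the 6217 genes with a value on every array, 49.4% lay apart in this way, 19.0% higher and 30.4% lower.

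**Figure D1:**
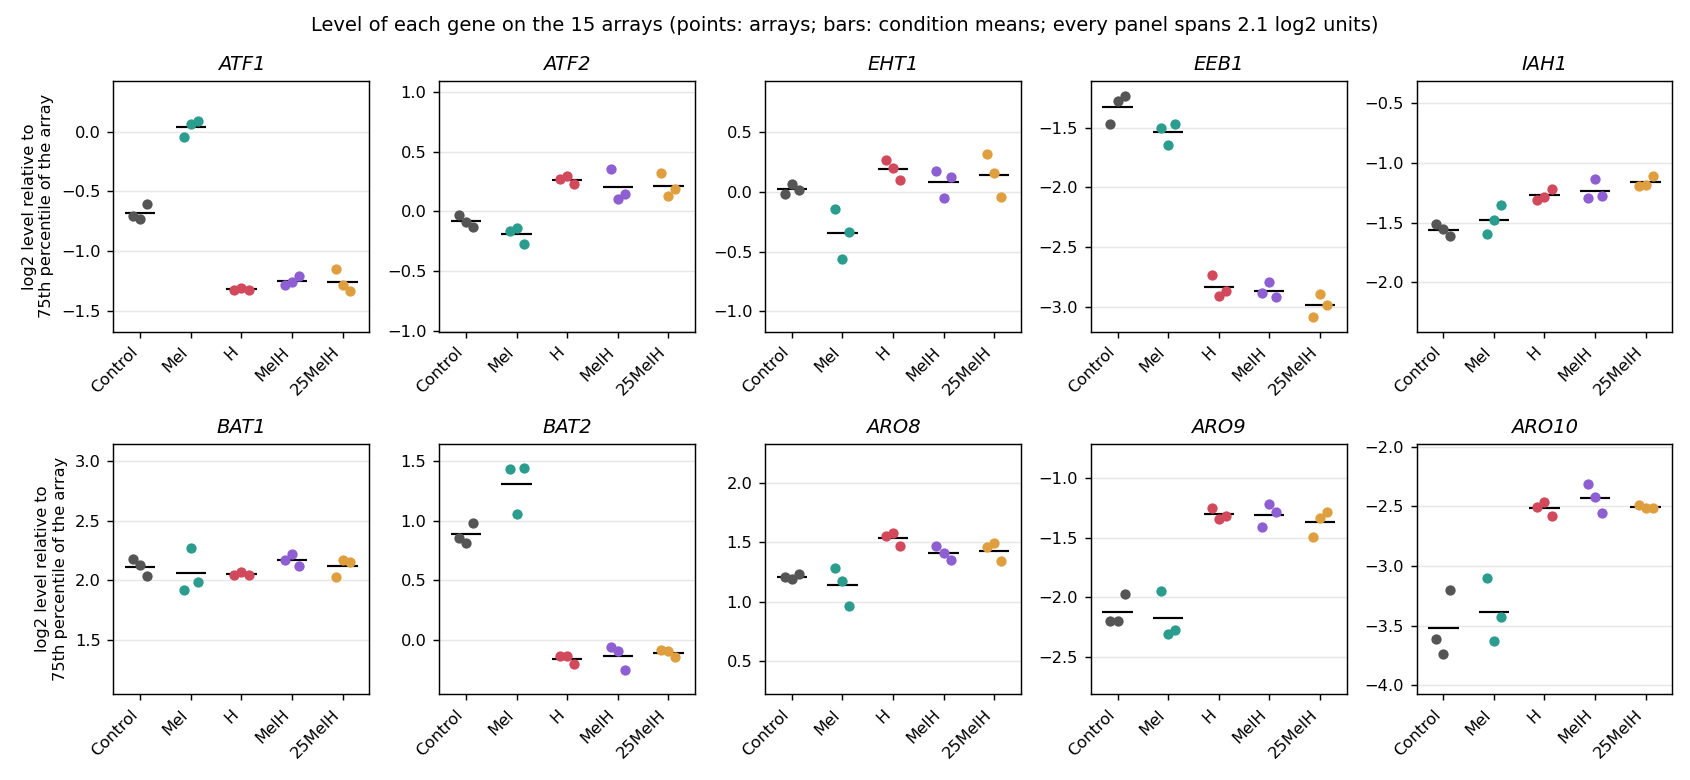
Level of each of the 10 genes on each of the 15 arrays (log2 signal relative to the 75th percentile of the array, every panel to the same scale), with points for arrays and bars for the mean of the 3 arrays of a condition. The 9 arrays with H2O2 lie apart from the 6 without it for 8 of the 10 genes, while *EHT1* and *BAT1* overlap. At this scaling *ATF1*, *EEB1* and *BAT2* lie lower and 5 genes higher. With spike-in scaling the mean changes of these 5 genes in H vs. Control were negative.

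*ATF1*, whose product is the main acetyltransferase for isoamyl acetate and ethyl acetate, was highest in Mel and lowest under stress. Its level was −0.70, −0.74 and −0.61 on the Control arrays and −0.044, 0.067 and 0.088 on the Mel arrays. It was −1.33, −1.31 and −1.33 in H, −1.29, −1.26 and −1.21 in MelH, and −1.15, −1.29 and −1.34 in 25MelH. The 3 Mel arrays lay above the 3 Control arrays, and these lay above all 9 stressed arrays. The 25MelH arrays overlapped with those of H and of MelH, while the MelH arrays lay just above the H arrays. In H vs. Control the log2 level fell by 0.64 (SE 0.047, 1.56-fold lower, limma adjusted p = 0.000108). In MelH vs. Mel, which shares no array with that comparison, it fell by 1.29 (SE 0.090). This fall is a description, since the level on the same Mel arrays chose the gene. Against the shared Control arrays, the change was −0.57 (SE 0.060) in MelH and −0.58 (SE 0.070) in 25MelH, with limma adjusted p of 0.000431 and 0.000748.

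The *ATF1* level in Mel, which chose the gene, was 0.72 above Control on the log2 scale, or 1.65-fold. On slide 1 the difference was 0.675, on slide 2 it was 0.687, and with spike-in scaling 0.43. *BAT2*, for the cytosolic branched-chain aminotransferase, was 0.42 above Control in Mel (1.34-fold), with 3 of 3 Mel arrays above all Control arrays. *ATF2* and *EHT1* lay below Control on every Mel array, by 0.109 and 0.372 in the mean. The arrays of 18.5% of all genes lay apart in this comparison. The other 6 genes overlapped between Mel and Control, with mean differences from −0.21 (*EEB1*) to 0.13 (*ARO10*). Over all genes 0.353% (22 of 6224) were called in this comparison, 9 with the replicate number as a block and 1 with the slide as a block, and no call of the 10 genes is drawn from it. The melatonin effect under stress minus that without stress was −0.65 for *ATF1*. This contrast, in which 0.370% of all genes were called, contains Mel vs. Control and is a description here as well.

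*ATF2*, for the second alcohol acetyltransferase, had its highest levels under stress at the percentile scaling and its lowest in Mel. Its level was −0.031, −0.091 and −0.127 in Control and 0.269, 0.300 and 0.226 in H. It was −0.162, −0.141 and −0.272 in Mel and 0.358, 0.102 and 0.147 in MelH. The 9 stressed arrays lay above the 6 others, from 0.102 to 0.358 against −0.272 to −0.031. The change was 0.35 in H vs. Control (SE 0.045, limma adjusted p = 0.000964) and 0.39 in MelH vs. Mel (SE 0.11, limma adjusted p = 0.0181), and it was −1.04 and −0.60 with spike-in scaling. On slide 1 alone and on slide 2 alone the change in H vs. Control was 0.33 and 0.39, with limma adjusted p of 0.118 and 0.108.

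*EEB1*, for the main acyltransferase that makes ethyl esters of medium-chain fatty acids, had the largest fall of the 10 genes in H vs. Control. Its level was −1.47, −1.28 and −1.24 in Control and −2.74, −2.92 and −2.87 in H. In Mel it was −1.51, −1.64 and −1.47, and in MelH it was −2.89, −2.80 and −2.92. In 25MelH it was −3.09, −2.90 and −2.99. All 9 stressed arrays lay more than 1 log2 unit below all 6 others, and Control and Mel overlapped. The level fell by 1.51 in H vs. Control (SE 0.083, 2.85-fold lower, limma adjusted p = 4.07e-05) and by 1.33 in MelH vs. Mel (SE 0.096, limma adjusted p = 6.13e-05). Its lowest signal under stress was 268, well above background.

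*EHT1*, for the other acyltransferase of ethyl ester formation, changed little at this scaling. Its level was −0.014, 0.069 and 0.018 in Control and 0.267, 0.202 and 0.099 in H. It was −0.146, −0.560 and −0.335 in Mel, the lowest and most scattered condition, and 0.173, −0.049 and 0.124 in MelH. The H arrays lay above the Control arrays, while the 25MelH arrays, from −0.040 to 0.319, overlapped with them. The change of 0.17 in H vs. Control (SE 0.057) had a limma adjusted p of 0.0433, which rose to 0.0596 after normexp background correction, to 0.0914 with the replicate number as a block and to 0.059 to 0.133 without 5 of the 6 arrays in turn. In MelH vs. Mel the change was 0.43 (SE 0.13, limma adjusted p = 0.0295), and 0.39 with the slide as a block (limma adjusted p = 0.0584). With spike-in scaling both changes were negative, −1.22 and −0.56. In MelH vs. Control and 25MelH vs. Control it was not called, with changes of 0.058 and 0.12.

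*IAH1*, for the esterase that cleaves isoamyl acetate, lay higher under stress at the percentile scaling. Its level was −1.51, −1.55 and −1.61 in Control and −1.31, −1.28 and −1.22 in H. In Mel it was −1.60, −1.48 and −1.35, in MelH −1.29, −1.13 and −1.28, and in 25MelH −1.19, −1.18 and −1.11. The 9 stressed arrays did not overlap with the 6 others, although the highest Mel array came within 0.05 of the lowest H array. The change in H vs. Control was 0.29 (SE 0.048, limma adjusted p = 0.00282), and −1.10 with spike-in scaling. The change of 0.24 in MelH vs. Mel missed the threshold (limma adjusted p = 0.0883), with an interval that reached from just below 0 to about 0.49.

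*BAT1* and *BAT2* encode the mitochondrial and the cytosolic branched-chain aminotransferase, which act on leucine, isoleucine and valine, and they differed in their response to stress. *BAT2* was 0.858, 0.816 and 0.984 in Control and −0.136, −0.132 and −0.203 in H. It was 1.437, 1.052 and 1.444 in Mel and −0.061, −0.093 and −0.254 in MelH. In 25MelH it was −0.087, −0.090 and −0.146. All stressed arrays were below all others, with no overlap. The level fell by 1.04 in H vs. Control (SE 0.057, 2.06-fold lower, limma adjusted p = 4.14e-05) and by 1.45 in MelH vs. Mel (SE 0.14, limma adjusted p = 0.000189).

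The *BAT1* level ranged only from 1.917 to 2.270 on the 6 arrays without H2O2 and from 2.026 to 2.220 on the 9 with it, so that the sets overlapped. The change in H vs. Control was −0.061, with a 95% interval from −0.183 to 0.062 (limma adjusted p = 0.315), and in MelH vs. Mel it was 0.11 (limma adjusted p = 0.456). Its direction depended on the scaling. In H vs. Control the change was −0.26 after quantile normalization (limma adjusted p = 0.00452), 0.197 after median centring (limma adjusted p = 0.012) and −1.448 with spike-in scaling (limma adjusted p = 5.06e-06).

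The aromatic genes *ARO8*, *ARO9* and *ARO10* lay higher under stress at the percentile scaling. With spike-in scaling their changes were negative, but those of *ARO9* and *ARO10* in MelH vs. Mel were not called (limma adjusted p of 0.605 and 0.872). *ARO9*, for an inducible aromatic aminotransferase, was −2.20, −2.19 and −1.97 in Control and −1.25, −1.34 and −1.32 in H. It was −1.94, −2.30 and −2.28 in Mel and −1.41, −1.22 and −1.29 in MelH. The 9 stressed arrays, at −1.50 and above, were clear of the 6 others. The change was 0.82 in H vs. Control (SE 0.075, 1.76-fold higher, limma adjusted p = 0.000248) and 0.87 in MelH vs. Mel (SE 0.13, limma adjusted p = 0.00138), against −0.57 and −0.126 with spike-in scaling.

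*ARO10*, for the decarboxylase that acts on phenylpyruvate and other keto acids, lay apart between arrays with and without H2O2. Its level was −3.61, −3.74 and −3.21 in Control and −2.51, −2.47 and −2.58 in H. In Mel it was −3.10, −3.63 and −3.43, and in MelH it was −2.32, −2.43 and −2.56. Arrays without H2O2 scattered more than those with it, with an SD of 0.278 in Control and 0.057 in H, and the sets did not overlap. The change was 1.00 in H vs. Control (SE 0.14, limma adjusted p = 0.00138) and 0.96 in MelH vs. Mel (SE 0.15, limma adjusted p = 0.00193), against −0.387 and −0.038 with spike-in scaling.

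*ARO8*, for the constitutive aromatic aminotransferase, moved less. Its level was 1.209, 1.193 and 1.233 in Control and 1.555, 1.581 and 1.464 in H, a change of 0.32 (SE 0.046, limma adjusted p = 0.00144) that was −1.066 with spike-in scaling. On the 3 Mel arrays it was 1.286, 1.175 and 0.969, and in MelH vs. Mel the change of 0.27 was not called (limma adjusted p = 0.0793). In MelH vs. Control the change was 0.20 (limma adjusted p = 0.0227), which became 0.0607 with the replicate number as a block, and after quantile normalization the change was 0.037 (limma adjusted p = 0.569).

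Counted together, 9 of the 10 genes were called in H vs. Control, 6 higher and 3 lower. Stress moved most of the measured genes: 68.4% of all genes were called in this comparison, 27.2% higher and 41.2% lower. With spike-in scaling 0 of the 10 were called higher and 10 lower, where 5942 of all 6224 genes were called. At the percentile scaling the median change was 0.226 over the 10 genes and −0.091 over all genes. In MelH vs. Mel 7 of the 10 were called, 4 higher and 3 lower, where 52.9% of all genes were called, 21.9% higher and 31.0% lower. These comparisons have no array in common, and 9 of the 10 genes changed with the same sign in both, as did 88.6% of all genes. All 7 genes called in MelH vs. Mel had a call of the same direction in H vs. Control too, and 47.4% of all genes were called that way in both. *ATF1* is among the 7, and its MelH vs. Mel value uses the Mel arrays that chose it.

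MelH vs. Control and 25MelH vs. Control use the Control arrays of H vs. Control again. In each of them 8 of the 10 genes were called, 5 higher and 3 lower, where 62.5% (25.2% higher, 37.3% lower) and 65.5% (26.2% higher, 39.3% lower) of all genes were called. *EHT1* and *BAT1* were the genes not called in either. The called changes ran from −1.54 (*EEB1*) to 1.09 (*ARO10*) in MelH and from −1.66 (*EEB1*) to 1.01 (*ARO10*) in 25MelH. With spike-in scaling none of the 10 genes was called higher in either comparison, and 9 and 10 were called lower. Of all 6224 genes, 5932 and 6028 were then called.

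Slides 1 and 2 each held arrays of every condition. In H vs. Control the change was −1.36 and −1.66 for *EEB1* on slides 1 and 2, −0.97 and −1.15 for *BAT2*, and −0.61 and −0.71 for *ATF1*. It was 0.95 and 0.64 for *ARO9*, and 1.17 and 0.68 for *ARO10*. The sign was the same on both slides for the 9 genes called in H vs. Control, and 6 and 5 of the 10 genes were called on slides 1 and 2 alone, where 47.5% and 24.5% of all genes were. The sign in MelH vs. Mel was the same on both slides for 9 of the 10 genes, all but *BAT1*, with 0.277 and −0.012.

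**Figure D2:**
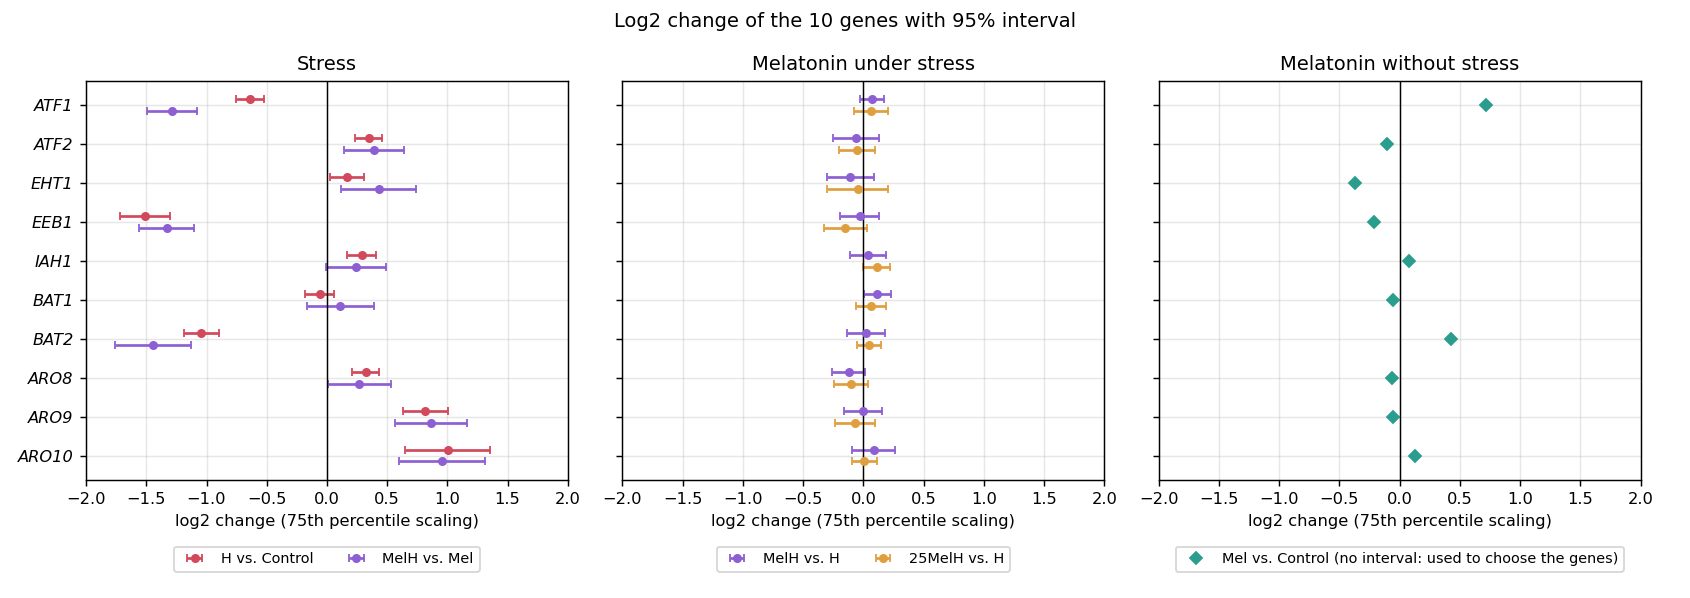
Log2 change of the 10 genes (75th percentile scaling) with 95% intervals from limma for stress (H vs. Control and MelH vs. Mel) and for melatonin under stress (MelH vs. H and 25MelH vs. H), and without interval for Mel vs. Control, on which the choice of genes rested. Stress moved *EEB1*, *BAT2* and *ATF1* down and *ARO9* and *ARO10* up, while every change between stressed conditions lay within 0.15 of 0. With spike-in scaling *ARO9* and *ARO10* changed by −0.57 and −0.387 in H vs. Control. In MelH vs. Mel they then changed by −0.126 and −0.038 and were not called. The *ATF1* value in MelH vs. Mel uses the Mel arrays on which its choice rested.

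Melatonin before stress left no called change in these genes. In MelH vs. H, 0 of the 10 genes and 0 of all 6224 genes (0%) passed the adjusted threshold in limma. Before adjustment 778 genes (12.5% of all) had a limma p under 0.05, and 1 of the 10 was among them, *BAT1*, with a change of 0.116. The changes of the 10 genes lay between −0.123 (*ARO8*) and 0.116 (*BAT1*). Their 95% intervals, from a fit that did not pair the arrays, reached from −0.302 to 0.267. Changes of more than 1.23-fold lay outside every such interval at the percentile scaling. With spike-in scaling the changes lay between −0.019 (*ARO8*) and 0.220 (*BAT1*), and the median of all genes was 0.12. The MelH arrays of *ATF1* and *BAT1* lay above the H arrays without overlap, as did those of 13.7% of all genes.

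At 25 μM melatonin the picture under stress was the same in size. In 25MelH vs. H, 0 of the 10 and 0% of all genes were called in limma, and 987 genes (15.9%) were under 0.05 before adjustment, with *IAH1* among them at a change of 0.111. The changes lay between −0.149 (*EEB1*) and 0.111 (*IAH1*), with intervals from −0.327 to 0.220. The step from 5 to 25 μM, in 25MelH vs. MelH, gave 0 calls in limma among the 10 genes and 0% of all genes, with 86 genes in all (1.38%) and 0 of the 10 under 0.05 before adjustment. Its changes lay between −0.12 (*EEB1*) and 0.074 (*IAH1*), within intervals from −0.293 to 0.334. With spike-in scaling they lay between −0.346 (*EEB1*) and −0.152 (*IAH1*), and the median of all genes was −0.232. For every one of the 10 genes the levels of H, MelH and 25MelH overlapped between neighbours in their order.

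The ratio of the signals of 2 genes on the same array is the same under percentile, median and spike-in scaling, which shift all genes of an array alike, but not under quantile normalization. The ratio of *ATF1* over *IAH1*, synthesis against cleavage of isoamyl acetate, was 0.803, 0.819 and 1.003 on the log2 scale in Control and −0.017, −0.023 and −0.113 in H. In Mel it was 1.552, 1.546 and 1.443, and in MelH it was 0.007, −0.125 and 0.071. The ratio was lower on every stressed array than on every other array. The difference was −0.93 (SE 0.071) in H vs. Control and −1.53 (SE 0.068) in MelH vs. Mel. *ATF1* over *ATF2* differed by −0.99 (SE 0.061) and −1.68 (SE 0.12) in the same comparisons. For both ratios the MelH vs. Mel difference uses the Mel arrays that chose *ATF1*.

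The ratio of *EHT1* over *EEB1* was 1.458, 1.349 and 1.253 in Control and 3.005, 3.117 and 2.966 in H. The H arrays were above the Control arrays by 1.68 (SE 0.074), and in MelH vs. Mel the difference was 1.76 (SE 0.13). *BAT1* over *BAT2* was 1.317, 1.312 and 1.050 in Control and 2.180, 2.203 and 2.243 in H. This is a difference of 0.98 (SE 0.090), and it was 1.56 (SE 0.24) in MelH vs. Mel. *ARO9* over *ARO8* differed by 0.50 (SE 0.077) and 0.60 (SE 0.12). The groups did not overlap in either comparison for these 5 ratios. The pairs were chosen with earlier results known and no share over other gene pairs is given, so this is a description. In H vs. Control each had the two-sided exact permutation p of 0.1, as had the ratios without *ATF1* in MelH vs. Mel. It is the smallest that 3 against 3 arrays allow (0.273 after the Benjamini-Hochberg adjustment over 30 tests of ratios). This test therefore cannot reach the threshold for a single ratio. The *ATF1* ratios in MelH vs. Mel are a description only, although the 30 tests include them. *ARO10* over *ARO9* overlapped between the conditions in both comparisons, with differences of 0.18 and 0.088.

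Between stressed conditions the ratios moved by at most 0.182. In 25MelH vs. H the ratio of *ATF1* over *ATF2* was higher by 0.116 (SE 0.034) with no overlap, and all other ratios overlapped in MelH vs. H, 25MelH vs. H and 25MelH vs. MelH.

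**Figure D3:**
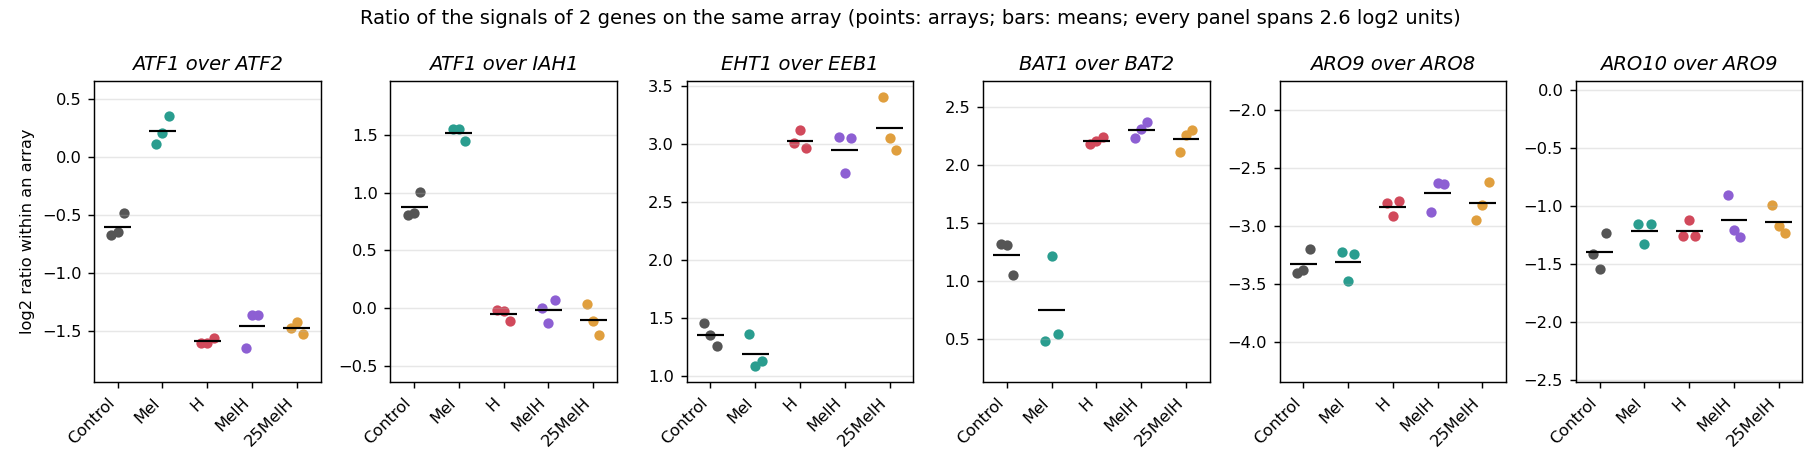
Log2 ratio of the signals of 2 genes on the same array, for 6 pairs, with points for arrays and bars for condition means (every panel to the same scale). Stressed and unstressed arrays lie apart for the first 5 pairs, with H vs. Control differences of −0.99, −0.93, 1.68, 0.98 and 0.50, and overlap for *ARO10* over *ARO9*.

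The enzymes around these 10 genes were followed in lists written from general knowledge, whose counts stand beside 27.2% of all genes called higher and 41.2% lower in H vs. Control, and 21.9% and 31.0% in MelH vs. Mel. Of the 70 genes in these lists, 19 were called higher in H vs. Control, against 15 in MelH vs. Mel, and with spike-in scaling 1 and 3 of these kept a positive value. Of the 15 genes for the other Ehrlich pathway decarboxylases, the dehydrogenases and the exporter, 4 were called higher and 5 lower in H vs. Control, with a median of 0.004 (all genes −0.091). The alcohol dehydrogenase gene *ADH5* fell by 3.67 log2 units in H vs. Control and by 3.78 in MelH vs. Mel. *GRE2*, for a reductase that acts on isovaleraldehyde and methylglyoxal, rose by 0.96 and 1.26, and *PDC1*, for the main pyruvate decarboxylase, by 0.81 and 0.65, relative to the 75th percentile. With spike-in scaling their changes were −0.43 and 0.26 for *GRE2* and −0.58 and −0.34 for *PDC1*. *PDC6* was well above background on 10 of the 15 arrays.

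The supply of keto acids and amino acids moved in different directions. Of 10 genes of branched-chain amino acid synthesis, 2 were called higher and 4 lower in H vs. Control, with a median of −0.108. *ILV5* and *ILV3*, for steps shared by the branched-chain amino acids, fell by 1.58 and 0.73, while *LEU1*, of the leucine branch, rose by 0.76 at the percentile scaling (−0.63 with spike-in scaling). Of 12 genes of aromatic amino acid synthesis, 7 were called higher and 2 lower, with a median of 0.228. Among them, *TRP3* and *TRP2*, for subunits of anthranilate synthase, rose by 0.56 and 0.50, and *ARO7*, for chorismate mutase, rose by 0.52 at that scaling (−0.83, −0.89 and −0.87 with spike-in scaling).

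Of the 6 permease genes for branched-chain and aromatic amino acids, 1 was called higher and 5 lower in H vs. Control, with a median of −0.681, and in MelH vs. Mel 0 were called higher and 5 lower. The general amino acid permease gene *GAP1* fell by 1.74, the broad-range permease gene *AGP1* by 1.39 and the tryptophan and tyrosine permease gene *TAT2* by 0.81. The falls were 2.18, 1.90 and 0.75 in MelH vs. Mel.

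Of 9 genes of acyl-CoA supply and related esterases, 4 were called higher and 3 lower in H vs. Control. *FAA2*, for a medium-chain acyl-CoA synthetase, fell by 1.73, and *ACS1*, for an acetyl-CoA synthetase, fell by 0.94. *ACC1*, for acetyl-CoA carboxylase, rose by 0.87 at the percentile scaling (−0.51 with spike-in scaling). In the list of oxygen and unsaturated fatty acid response, 1 of 10 genes was called higher and 4 lower. The higher was *ROX1*, for a repressor of hypoxic genes, which rose by 2.50 in H vs. Control and by 2.08 in MelH vs. Mel, and by 1.12 and 1.09 with spike-in scaling. *HAP1*, for a haem-responsive regulator, fell by 1.55, and *MGA2*, for an activator of the desaturase gene *OLE1*, fell by 0.54. *OLE1* itself, whose unsaturated products are known to repress *ATF1*, was not called at the percentile scaling, with a change of 0.20 (limma adjusted p = 0.127). With spike-in scaling its change was −1.185.

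None of the 8 regulators of nitrogen and amino acid genes was called higher in H vs. Control and 5 were called lower, with a median of −0.363. The GATA activator genes *GAT1* and *GLN3* fell by 1.14 and 1.00, and *GZF3*, for a GATA repressor, fell by 0.47. *ARO80*, for the activator of *ARO9* and *ARO10*, fell by 0.28 (limma adjusted p = 0.00953), and in MelH vs. Mel its change was −0.17 (limma adjusted p = 0.18). *LEU3* and *GCN4*, for activators of amino acid synthesis genes, were not called at the percentile scaling, with changes of 0.042 and 0.056 (limma adjusted p of 0.572 and 0.411). With spike-in scaling their changes were −1.346 and −1.332. *DAL80* was well above background on 2 arrays. In MelH vs. H, 25MelH vs. H, 25MelH vs. MelH and Mel vs. Control, 0 genes of the 7 lists were called in limma, in comparisons that called 0%, 0%, 0% and 0.353% of all genes.

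**Figure D4:**
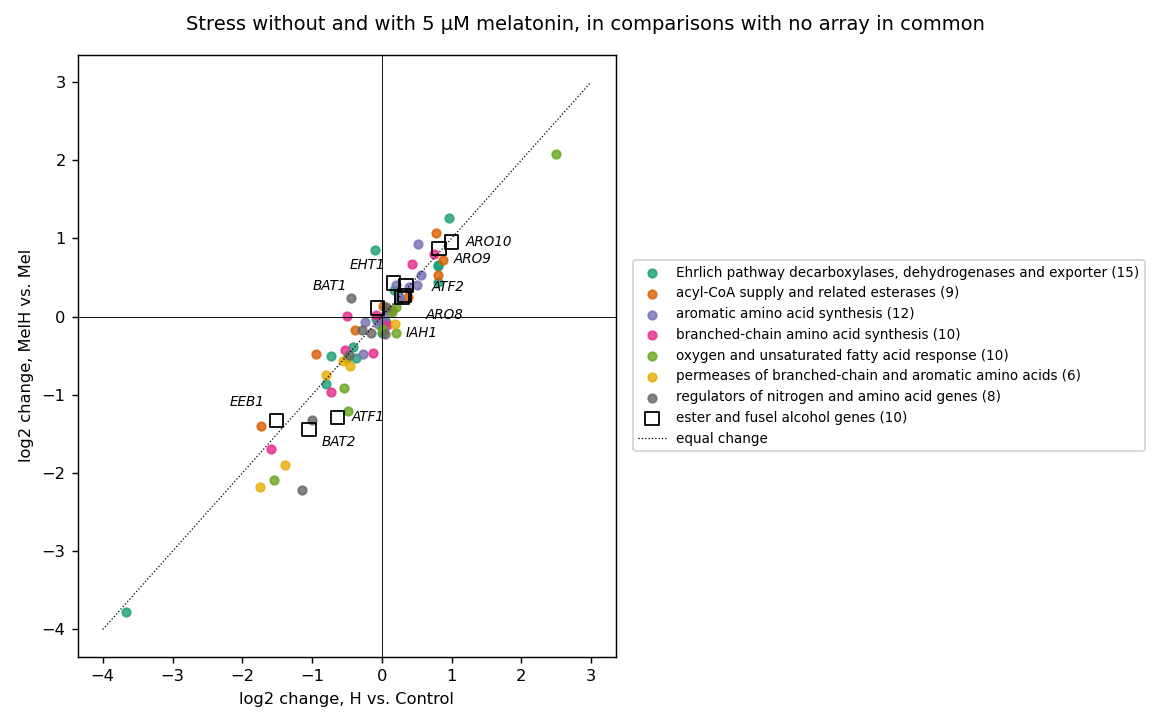
Log2 change of the 10 genes (squares) and of the 70 genes of the 7 surrounding lists (points) in the comparisons H vs. Control and MelH vs. Mel, which share no array (75th percentile scaling). *ADH5* fell by 3.67 and 3.78 and *ROX1* rose by 2.50 and 2.08, at the ends of the plot, with the 10 genes between them. All positive changes are relative to the 75th percentile.

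The profiles of the 10 genes over the 15 arrays were set beside those of 5381 other genes, not all of those with a value on every array. This is a description, since arrays of a condition share its treatment and r mostly follows the condition means. The genes most like *ATF1* were *DUR3*, a urea and polyamine permease gene (r = 0.988), *HEM14*, of haem synthesis (0.984), and *ANB1*, the hypoxic translation factor gene (0.984). Within conditions, the r of the deviations from the means was 0.444, 0.414 and 0.187. The gene most like *BAT2* was *GPD1*, of glycerol synthesis (r = 0.992, 0.891 within conditions), and the gene most like *EEB1* was *MRPL22*, of the mitochondrial ribosome (0.995, 0.668).

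The nearest profiles of the other genes were *SSE1*, a chaperone gene, for *ATF2* (r = 0.985), *ATP5*, of the ATP synthase, for *EHT1* (0.934) and *ARO2*, for chorismate synthase, for *IAH1* (0.974). They were *COQ10* for *BAT1* (0.863), *SSY5*, of external amino acid sensing, for *ARO8* (0.961), *RAD34* for *ARO9* (0.984) and *GYP5* for *ARO10* (0.973). Among the 10 genes, *ARO9* and *ARO10* had the highest r (0.964, and 0.664 within conditions), followed by *ATF1* and *BAT2* (0.955). For the latter pair the r within conditions was −0.028, so that their likeness lay in the condition means.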

How the data were processed

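RNA of strain QA23 was labelled with Cy3 and hybridized to 15 one-colour Agilent arrays, 3 for each of 5 conditions, which were taken from the sample labels. The authors deposited the scanner's tables, made with Feature Extraction 12.0.1.1, in which the processed signal is a linear intensity after background subtraction. They also deposited normalized log2 values centred on each probe's median. In this matrix 6 of 15 columns equal the scanner values of their own sample and 9 that of another sample, so the condition of these 9 arrays (Mel, H and MelH) rests on the scanner tables, each deposited under its own sample. Neither deposit states which is right. By the scanner labels 649 genes had a limma p under 0.05 before adjustment in Mel vs. Control, and 4416 in H vs. Control. The paper also reports 649 genes for Mel vs. Control, whereas by the matrix names this count would belong to H vs. Control. Its methods name a Benjamini-Hochberg correction, whereas the count here is before adjustment. After adjustment 22 genes were called here in Mel vs. Control. The matrix served only as an alternative, paired by the tables its columns equal. The authors' tables also hold flags for outlier, saturated and well-above-background spots. The genome position of the probes is not given here, because the array design and the gene table use different builds.

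Spots flagged as outliers were left out (1 to 84 per array), the log2 processed signals of the 2 spots of each of 6256 probes were averaged, and each array's 75th percentile was subtracted. Of several probes of a gene the brightest was kept, so that 32 were dropped and 6224 genes remained, 5642 of them named through the RefSeq gene table. Pairs of conditions were compared on their 6 arrays with limma 3.58.1 (lmFit, eBayes, two-sided) under R 4.3.3, and p-values were adjusted by Benjamini-Hochberg over the 6224 genes, with calls at an adjusted p under 0.05. File reading used the packages jsonlite 2.0.0 and data.table, version 1.17.8. A change within a slide was fitted on all arrays of that slide, so that a condition with 1 array there is assumed to vary like the others. The script was tested on simulated data. Alternatives were normexp (offset 50, on the median spot signal, since a mean signal was not used here), quantile, median and spike-in scaling, the deposited matrix, the mean of probes, a filter on dim probes, slide and replicate blocks, slides apart, all arrays in the fit, and each array left out.

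Deviations from the condition mean correlated between arrays of the same number in Mel vs. Control, with r from 0.106 to 0.28, and in MelH vs. H, with r from 0.143 to 0.307. As 3 of 3 pairs were over 0.1, these arrays count as pairs in those comparisons, a reading of the data that no source states. Elsewhere 0 to 2 of 3 pairs were over 0.1.

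The 10 genes, the lists and the tests were chosen with earlier results of these arrays known. Named are the 10 genes, *ARO80*, *LEU3*, *GCN4* and *OLE1*, up to 3 called genes per list that changed most in H vs. Control, and the 3 genes most like *ATF1* and the 1 most like each other gene by Pearson r. *PDC6* and *DAL80* were named after their values were seen.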

Additional observations from a re-analysis of the deposited data

Results flagged for a closer look

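*ATF1* stood out because its response to 5 μM melatonin differed between cultures with and without H2O2. The melatonin effect under stress minus that without stress was −0.65 on the log2 scale, from a melatonin effect of 0.072 under stress and 0.72 without it, and −0.254 with spike-in scaling. The difference consists mostly of the Mel vs. Control value on which the choice of *ATF1* rested, so it is a description, and its place among the 0.370% of all genes called in this contrast (23 of 6224) supports nothing. For *BAT2* the difference was −0.40.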

How the results depend on the processing

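Scaling had the greatest effect on the results. With spike-in scaling 20 called rises turned negative. In H vs. Control these were *ATF2* (−1.04), *EHT1* (−1.22), *IAH1* (−1.10), *ARO8* (−1.07), *ARO9* (−0.57) and *ARO10* (−0.387). In MelH vs. Mel they were *ATF2* (−0.599), *EHT1* (−0.564), *ARO9* (−0.126) and *ARO10* (−0.038). In MelH vs. Control they were *ATF2* (−0.998), *IAH1* (−0.96), *ARO8* (−1.085), *ARO9* (−0.47) and *ARO10* (−0.197), and in 25MelH vs. Control *ATF2* (−1.21), *IAH1* (−1.11), *ARO8* (−1.29), *ARO9* (−0.76) and *ARO10* (−0.499). The median of all genes fell by 1.359 and 1.59 in the last 2 comparisons. Median centring moved it to 0.166, 0.17, 0.173 and 0.192 in the 4 stress comparisons and gave 7 higher and 3 lower calls in each. Of all genes it called 4409, 3594, 4123 and 4282.

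Fewer of the 10 genes were called on slide 2 alone in H vs. Control, MelH vs. Control and 25MelH vs. Control, where fewer arrays enter and Control has 1. After normexp correction 0 of the 10 were called in 25MelH vs. Control, with 78 of all genes, against 4076 of all genes in the main fit. The corrected values of 25MelH replicate 2 had an interquartile range of 0.81 log2 units, against 2.88 to 3.50 on the other arrays. Without that array, an alternative chosen after seeing the data, 7 of the 10 were called. Without each array in turn, 8 to 9 of the 10 were called in H vs. Control and 5 to 7 in MelH vs. Mel. They were 6 to 8 in MelH vs. Control, 7 to 8 in 25MelH vs. Control and 0 in the 3 comparisons among stressed conditions. The share of all genes is not given for these refits, so the ranges show nothing particular to the 10 genes.

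In Mel vs. Control, 0 were called under spike-in scaling, under the slide block, on slide 2 alone and without any 1 array, and 2 on slide 1 alone and with all 15 arrays in the fit. The replicate block gave 0. The cause was not tested. For the difference between the melatonin effects, 0 were called with spike-in scaling and 0 to 2 without each array in turn. Under the replicate block, which pairs arrays by number only, 8 genes were called in H vs. Control, 7 in MelH vs. Mel, 7 in MelH vs. Control and 7 in 25MelH vs. Control, *EHT1* losing its call in the first and *ARO8* in the last 2. It changed no other call in these comparisons.

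Of the values of single genes, 156 of 180 kept their call in H vs. Control, 155 of 180 in MelH vs. Mel, 155 of 180 in MelH vs. Control and 162 of 190 in 25MelH vs. Control. A called gene had to keep its direction, while a gene not called had only to stay uncalled, whatever its sign. In the comparisons among stressed conditions all of the 180, 190 and 190 stayed uncalled. Signs did change there, as for *IAH1* in 25MelH vs. MelH, with 0.074 and, with spike-in scaling, −0.152. The 3 arrays per condition limit what small changes can be seen.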
